A study of Rattus norvegicus with 22 samples.

Results

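Treadmill running was added to hypoxia in obese rats, and its effect on the transcripts of the gastrocnemius, a mixed but mainly fast-twitch muscle of the calf, was measured by RNA-seq. The comparison took the 3 libraries of the muscle hypoxia exercise group (MHE) against the 3 libraries of the muscle hypoxia quiet group (MH), 6 of the 22 libraries of the series. Its members were all genes outside the mitochondrial genome, which were 32586 of the 32623 rows of the count table. Of these nuclear genes, 12237 passed the filter on low counts and were tested. All rats were male Sprague Dawley, an outbred strain, were 3 weeks old at the start, and were made obese on a high-fat diet for 8 weeks. For the next 4 weeks the MH rats lived in hypoxia. The paper does not state whether MHE rats did so too or were in hypoxia only during their runs. MHE rats ran for 60 min a day on 5 days a week, at 20 m/min after a week of adaptation, while MH rats stayed quiet. The normoxia quiet group (MC) and the normoxia exercise group (MCE, which ran at 25 m/min) had 3 libraries each and entered the same fit. Food was withheld before sampling in every group. The hour of killing and the time since the last run are not given in the sources used here. By the methods, 22 rats gave the 22 libraries, 1 each. In whole muscle, fewer cells of a type and less RNA per cell cannot be told apart.

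Contracting muscle is known to respond on several time scales. Immediate-early genes peak soon after a bout and decay within hours. Stress genes of the endoplasmic reticulum and the cytosol follow the load of misfolded protein. Mitochondrial, vascular and fibre-type genes adjust over weeks of training, while low oxygen acts through hypoxia-inducible factors on glycolysis and blood vessel growth. The muscle clock, a loop of transcription factors that repress their own genes, sets a daily rhythm on many of these programmes and can be shifted by exercise and feeding.

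The depth of the nuclear genes differed more than 5-fold between libraries. Each of the 6 libraries held 32175012 to 40978512 counts, but mitochondrial genes took 89.4% to 97.4% of them. This left 2260531, 4334813 and 841153 nuclear counts in MH1, MH2 and MH3, and 2558413, 2910833 and 1618760 in MHE1, MHE2 and MHE3. The mitochondrial share was 93.3% ± 3.98 (SD, n = 3) in MH and 93.4% ± 2.30 (SD, n = 3) in MHE, and a two-sided exact permutation test gave p = 1, where the smallest value it can give is 0.10. MH3 was the shallowest library and stood apart from the others at several genes named in later paragraphs. The 13 measured markers of skeletal muscle fibres summed to 74366 to 100299 CPM (counts per 1000000 nuclear counts) in the 6 libraries, so the defining transcripts of the labelled tissue were present in each. CPM values in the text are counts divided by the nuclear total of the library, and the fold changes come from edgeR with TMM scaling.

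At an adjusted p under 0.05, edgeR's quasi-likelihood test called 1 of the 12237 genes (0.00817%), Rpl30, which rose. Without adjustment, a p under 0.05 was reached by 184 genes that were higher in MHE (1.5%) and by 283 that were lower (2.31%). The 2 groups of libraries did not overlap at 483 genes that were higher in MHE (3.95%) and at 588 that were lower (4.81%). The median log2 fold change over all genes was -0.02, and 48% of the genes had a value above 0. These shares are the background against which the counts of each gene group are given. Below Rpl30, the smallest adjusted p was 0.145 with edgeR. DESeq2, the tool nearest to the one the study used, called 7 genes: Rpl30, Fmo1, Fmo2 and Bgn were higher, and Ctsl, Pdia4 and Tspan8 were lower.

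**Figure D1:**
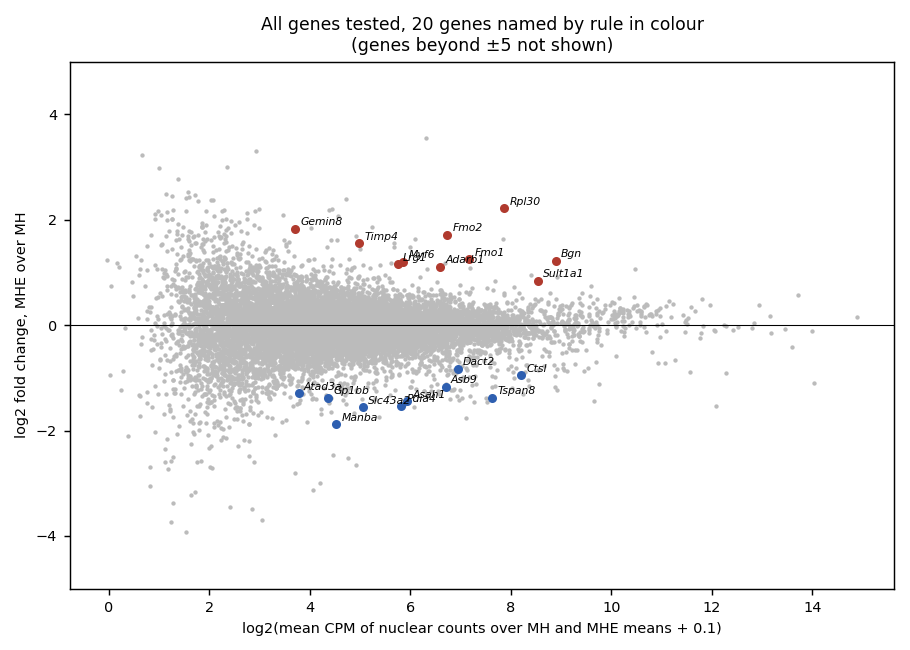
Each grey point is 1 of the 12237 nuclear genes tested (values beyond 5 on either side are not drawn), with its mean level on a log2 axis and its log2 fold change of MHE over MH. The 10 genes named by rule in each direction are coloured, and Rpl30 lies highest of these at 2.22.

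Rpl30, whose product is a protein of the large ribosomal subunit, had 61.5, 88.4 and 98.7 CPM in MH and 392, 403 and 353 CPM in MHE. The normoxic libraries had 593, 508 and 425 CPM in MC and 405, 544 and 357 CPM in MCE. The 3 MH libraries were therefore below all 9 others, and the 3 MHE libraries were close to the MCE libraries. The log2 fold change of MHE over MH was 2.22 ± 0.27 (SE), a 4.66-fold difference, at an adjusted p of 0.00972 with edgeR. The same fit gave -0.21 ± 0.25 for MCE over MC and -2.62 ± 0.27 for MH over MC, and the last contrast shares the MH libraries. The row is ENSRNOG00000032825 on the minus strand of chr10:38024477-38024937 in the Ensembl release 99 annotation, a span of 461 bases. The RefSeq gene table of the rat (GRCr8) puts the gene with the symbol Rpl30 on another chromosome and lists 16 entries named after it, 11 of them pseudogenes. Reads can thus be shared with near-identical copies, and the row's level is uncertain in that respect. Of the 16 entries, 3 lie on the chromosome of this row. The count table has 3 rows named after Rpl30, this one included, and the values of the others are not given here. The call was lost when MH1, MH2 or MHE2 was left out, with log2 fold changes of 2.01, 2.33 and 2.15 and adjusted p of 0.0862, 0.0578 and 0.0704 from edgeR.

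The other cytosolic ribosomal proteins, which together form the translating ribosome outside mitochondria, had smaller log2 fold changes. Of 57 measured members, Rpl30 included, 53 had a positive log2 fold change, against 48% of all genes, and the median was 0.25. An unadjusted p under 0.05 was reached by 5 members, Rpl30 among them, all higher in MHE, against 1.5% of all genes. Only Rpl30 of the 57 had groups of libraries that did not overlap. Over all genes, 3.95% did not overlap and were higher in MHE, so the list held no excess by this measure. Rpl12 had 644, 615 and 493 CPM in MH and 1023, 1253 and 621 CPM in MHE. Rpl6 had 887, 1144 and 801 CPM in MH and 1406, 1524 and 1106 CPM in MHE. Both were high in MHE1 and MHE2, while their MHE3 value lay inside the MH range. Their log2 fold changes were 0.74 ± 0.28 and 0.52 ± 0.22, and Rpl3 had 0.54 ± 0.24. The group's value rested on single libraries. Without MH3 the positive members were 39 and the median was 0.06, without MHE2 they were 41 and 0.07, and without MH2 a p under 0.05 was reached by 17 members. It was reached by 1 without MH3, 1 without MHE2, 2 without MH1 and 2 without MHE1.

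Flavin monooxygenases are enzymes of the endoplasmic reticulum that oxidise nitrogen and sulphur in drugs and small metabolites. This list was added after the values were seen. Fmo2 had 65.5, 42.7 and 44 CPM in MH and 114, 188 and 185 CPM in MHE. Fmo1 had 100.4, 68.1 and 92.7 CPM in MH and 184, 214 and 207 CPM in MHE. For both genes the 3 MHE libraries were the highest of the 12, and MC and MCE lay at 65.9 to 106 CPM for Fmo2 and at 73.4 to 125 CPM for Fmo1. The log2 fold changes of MHE over MH were 1.71 ± 0.28 for Fmo2 and 1.25 ± 0.21 for Fmo1, each with an adjusted p of 0.145 in edgeR. DESeq2 gave 3.8e-05 and 4.5e-05 for the same genes. Fmo4 had 0 to 5.31 CPM in MH and 4.94 to 7.82 CPM in MHE, and Fmo5 had a log2 fold change of -0.16 ± 1.04.

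Fmo4, Fmo1 and Fmo2 lie near each other on the minus strand of chromosome 13 in the Ensembl release 99 annotation, at chr13:80685325-80703615, chr13:80712882-80745347 and chr13:80755058-80775264.

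**Figure D2:**
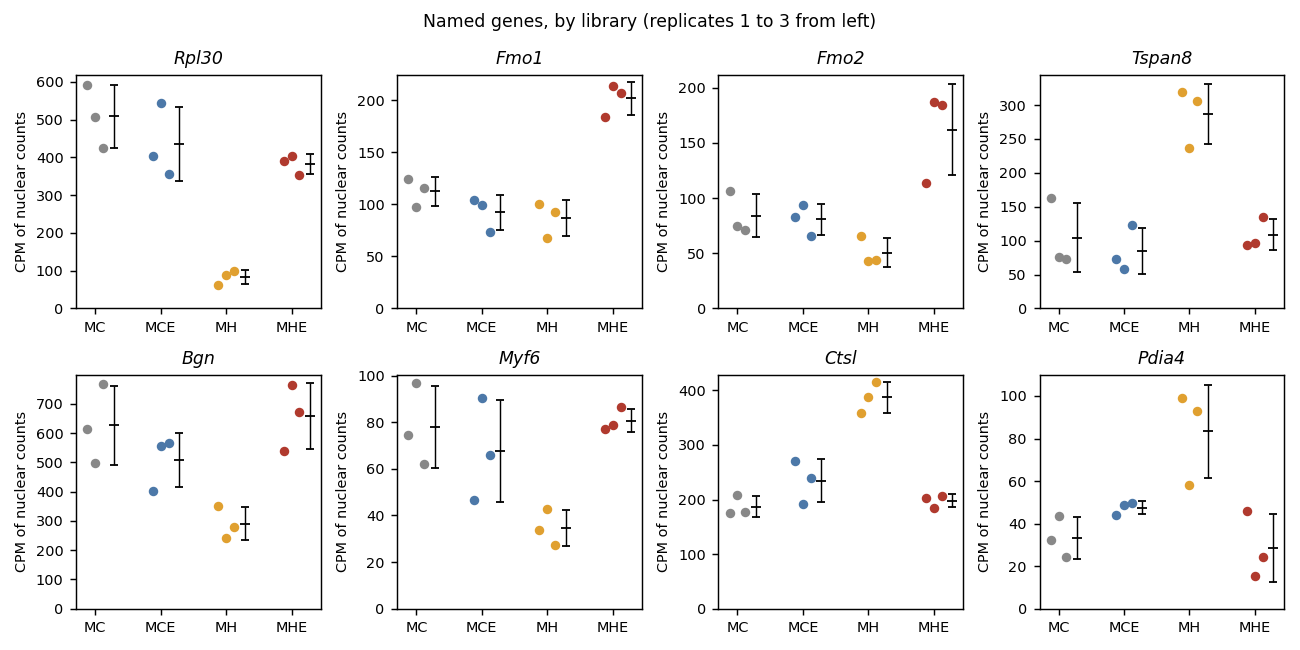
CPM of nuclear counts in each of the 12 gastrocnemius libraries for 8 genes, with the mean and SD of each group as a bar. Rpl30 is low in the 3 MH libraries only, Fmo1 and Fmo2 are highest in the 3 MHE libraries, and Ctsl, Pdia4 and Tspan8 are highest in MH.

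The rest of the 10 genes named as higher were 7, and their adjusted p was 0.559 or more in edgeR. Bgn encodes biglycan, a small proteoglycan of the extracellular matrix. It had 351, 241 and 281 CPM in MH and 539.8, 765 and 673 CPM in MHE, with a log2 fold change of 1.22 ± 0.25. Myf6 encodes MRF4, a myogenic transcription factor of mature fibres. It had 33.6, 42.7 and 27.3 CPM in MH and 77, 78.7 and 86.5 CPM in MHE, with a log2 fold change of 1.21 ± 0.31. For both genes the MH libraries lay below every library of MC and MCE, and the MHE libraries lay within or near their range. Timp4, an inhibitor of matrix metalloproteinases, had a log2 fold change of 1.56 ± 0.42, from 10.6 to 23.4 CPM in MH to 35 to 55 CPM in MHE, and its row overlaps Syn2 on the other strand. Adarb1, an adenosine deaminase that edits RNA, had 1.11 ± 0.28. Lrg1, a secreted leucine-rich glycoprotein, had 1.16 ± 0.31, and Sult1a1, a sulphotransferase for phenols, had 0.85 ± 0.23. Gemin8, a part of the complex that assembles spliceosomal particles, had 1.83 ± 0.46 at a low level, from 3.23 to 9.29 CPM in MH to 13.7 to 26.6 CPM in MHE.

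Genes of the integrated stress response and of the response to unfolded protein leaned the other way. Of 28 members, all measured, 27 had a negative log2 fold change and the median was -0.49. An unadjusted p under 0.05 was reached by 10 members that were lower in MHE, against 2.31% of all genes, and by 1 that was higher. In 8 members the libraries did not overlap and were lower in MHE, against 4.81% of all genes. No member passed the adjusted threshold in edgeR.

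The chaperones of the endoplasmic reticulum made up most of these. Pdia4, a disulphide isomerase, had 99.1, 58.4 and 92.7 CPM in MH and 46.1, 15.5 and 24.1 CPM in MHE, where MC had 24.1 to 43.6 CPM and MCE 44.2 to 49.5 CPM. Its log2 fold change was -1.53 ± 0.35 at an adjusted p of 0.999 with edgeR, while DESeq2 gave 0.0323. Its row is overlapped on the same strand by AABR07060522.1, so its reads may have been divided. Dnajb11, a co-chaperone, had 37.6, 34.4 and 65.4 CPM in MH and 31.7, 26.8 and 23.5 CPM in MHE, with a log2 fold change of -0.70 ± 0.28. Hyou1, a large chaperone that hypoxia induces, had 136, 57.9 and 240.1 CPM in MH and 46.9, 47.8 and 97.6 CPM in MHE, with a log2 fold change of -1.12 ± 0.46. MH3 was the highest library for the last pair. Hspa5 (BiP), the chief chaperone of the compartment and sensor of unfolded protein, had 504, 295 and 1164 CPM in MH and 204, 210.2 and 430.0 CPM in MHE. Calr, calreticulin, had 645, 492 and 1196 CPM in MH and 427, 478 and 472 CPM in MHE. Hspa5, Calr, Pdia3, Pdia6, Dnajb9, Ppp1r15a and Hsp90b1 had log2 fold changes from -1.17 to -0.49, and those not among the 4 of smallest p were named after their values were seen. Ddit4, an inhibitor of mTORC1 that glucocorticoids and stress induce, was the member with a positive value. It had 17.7, 14.3 and 32.1 CPM in MH and 41.4, 25.1 and 68 CPM in MHE, with a log2 fold change of 1.15 ± 0.41. Without MH3 the negative members were again 27, but the median was -0.32 and those lower at an unadjusted p under 0.05 were 2. They were also 2 without MHE1, 2 without MHE2 and 6 without MHE3.

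Many chaperone promoters carry the endoplasmic reticulum stress element, at which ATF6 acts with the CCAAT-binding factor NF-Y. It was searched as CCAAT followed 9 bases on by CCACG, on both strands, in the RefSeq windows from 250 bases before to 50 bases after the start of each gene. The window of 23 of the 28 members was in the table. The element was in 6 of these (26.1%), in Hspa5, Calr, Hsp90b1, Xbp1, Creld2 and Dnajc3, against 22 of all 33469 windows (0.0657%). The amino acid response element, searched as TGATGNAA, was in 3 of the 23 (13%), against 3.98% of all windows. The 4 of smallest p among them are shown to place the element, with CCAAT and CCACG, or their complements CGTGG and ATTGG, in capitals. Their log2 fold changes were -1.17 ± 0.50, -0.73 ± 0.32, -0.85 ± 0.39 and -0.50 ± 0.28. Positions refer to the first base of the element before the start of the gene, which was -43 in Hspa5 (GRCr8 chr3:38452766-38453065, plus strand), -232 in Calr (chr19:40213117-40213416, plus strand), -176 and -72 in Hsp90b1 (chr7:23012244-23012543, minus strand) and -65 in Xbp1 (chr14:84604373-84604672, plus strand).
Hspa5: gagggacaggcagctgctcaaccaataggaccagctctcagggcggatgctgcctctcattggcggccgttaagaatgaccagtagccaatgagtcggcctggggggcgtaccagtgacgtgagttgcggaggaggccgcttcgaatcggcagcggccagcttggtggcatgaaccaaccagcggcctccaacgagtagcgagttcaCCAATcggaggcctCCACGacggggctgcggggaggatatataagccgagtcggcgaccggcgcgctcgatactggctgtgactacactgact
Calr: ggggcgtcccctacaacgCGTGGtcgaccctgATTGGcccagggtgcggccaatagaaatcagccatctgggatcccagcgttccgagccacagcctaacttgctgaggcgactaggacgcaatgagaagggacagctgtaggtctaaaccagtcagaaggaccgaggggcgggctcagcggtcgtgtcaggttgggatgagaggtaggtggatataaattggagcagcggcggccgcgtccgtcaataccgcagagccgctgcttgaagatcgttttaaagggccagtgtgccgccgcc
Hsp90b1: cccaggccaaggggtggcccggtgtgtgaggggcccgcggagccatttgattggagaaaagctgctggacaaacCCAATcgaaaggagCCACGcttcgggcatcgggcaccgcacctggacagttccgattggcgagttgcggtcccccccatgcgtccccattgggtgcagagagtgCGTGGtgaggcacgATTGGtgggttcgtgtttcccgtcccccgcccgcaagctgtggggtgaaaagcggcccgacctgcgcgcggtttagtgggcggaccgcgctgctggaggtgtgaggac
Xbp1: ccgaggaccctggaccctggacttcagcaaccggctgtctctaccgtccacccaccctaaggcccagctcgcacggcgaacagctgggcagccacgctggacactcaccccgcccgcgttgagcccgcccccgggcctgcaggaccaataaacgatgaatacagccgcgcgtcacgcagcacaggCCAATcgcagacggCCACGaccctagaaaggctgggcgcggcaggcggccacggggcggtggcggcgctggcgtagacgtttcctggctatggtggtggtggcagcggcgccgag

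Lysosomal enzymes, which break down protein, lipid and sugar chains in the acidic compartment, also mostly had values below 0. This list too was added after the values were seen. Of 26 measured members, 22 had a negative log2 fold change and the median was -0.50. At an unadjusted p under 0.05, 10 were lower, against 2.31% of all genes. Ctsl, Asah1 and Manba were among the genes that the rule named as lower by their small p. Ctsl, cathepsin L, a protease raised in muscle wasting, had 359, 387 and 416 CPM in MH and 204, 184 and 207 CPM in MHE. The log2 fold change was -0.95 ± 0.18 at an adjusted p of 0.371 in edgeR and of 8.5e-05 in DESeq2. All MH libraries lay above the 9 others, which ranged from 175 to 270.4 CPM. Asah1, acid ceramidase, had 89.4, 68.7 and 111 CPM in MH and 32.4, 33.3 and 30.3 CPM in MHE, with a log2 fold change of -1.44 ± 0.38, and its row overlaps Pcm1 on the other strand. Manba, beta-mannosidase, had 31, 17.8 and 60.6 CPM in MH and 14.5, 6.18 and 7.41 CPM in MHE, with a log2 fold change of -1.89 ± 0.49. Gaa, the acid glucosidase that degrades glycogen, had 269, 143 and 411 CPM in MH and 88.3, 109.6 and 157 CPM in MHE, and MHE3 exceeded MH2. Psap, the precursor of the saposins, had 4566, 3079 and 11797 CPM in MH and 1554, 2256 and 2718 CPM in MHE. MH3 was the highest library in Asah1, Manba, Gaa and Psap, and without it the members lower at an unadjusted p under 0.05 were 4 while 22 were negative. Without MHE1 they were 5.

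The remaining genes named as lower had adjusted p of 0.999 in edgeR. Tspan8, a tetraspanin of the cell surface, had 319, 236 and 306 CPM in MH and 93.4, 97.2 and 135 CPM in MHE, with a log2 fold change of -1.37 ± 0.34. DESeq2 gave it an adjusted p of 0.0415. Asb9, a substrate receptor of ubiquitin ligases that binds creatine kinase, had 92.9, 166 and 172 CPM in MH and 60.2, 57 and 74.1 CPM in MHE, with a log2 fold change of -1.17 ± 0.32. Dact2, a modulator of Wnt and TGF-beta signalling, had 152, 162 and 158 CPM in MH and 111, 77.3 and 77.2 CPM in MHE. The libraries of MC and MCE lay between 57.8 and 163 CPM for Tspan8 and between 77.1 and 116 CPM for Dact2, below the 3 MH libraries in each case. Slc43a2, a transporter of large neutral amino acids, had -1.56 ± 0.42, and its row overlaps AABR07030040.1 on the same strand. Atad3a, an ATPase of the mitochondrial inner membrane, had -1.29 ± 0.35. Gp1bb, a platelet glycoprotein subunit, had -1.37 ± 0.36, and a further row of the table with this symbol overlaps it on the same strand, so its reads may have been divided.

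Immediate-early genes, transcription factors and regulators that are induced within minutes of a stimulus, mostly had values below 0. Of 24 measured members (26 were listed), 21 had a negative log2 fold change and the median was -0.43. At an unadjusted p under 0.05, 2 were lower, against 2.31% of all genes. The summed CPM of the list was 7171, 5791 and 4214 in MH and 5225, 3117 and 3871 in MHE, so the groups overlapped. Nr4a3, an orphan nuclear receptor induced by exercise, had 8.41, 60 and 28.5 CPM in MH and 0.782, 5.5 and 6.18 CPM in MHE. Its log2 fold change was -3.00 ± 0.94 at an unadjusted p of 0.00647 from edgeR, or -2.05 without MH2. Egr3, a zinc finger factor of muscle spindles and nerves, had 29.6, 12.2 and 5.94 CPM in MH and 3.91, 3.44 and 3.71 CPM in MHE, with a log2 fold change of -2.09 ± 0.78. Neither gene's groups overlapped, but the MH values spread widely. Nr4a1 had 783, 932 and 321 CPM in MH and 379.5, 246 and 247 CPM in MHE. Ier2 had 252, 214 and 225 CPM in MH and 192, 126 and 144 CPM in MHE. In MC, Nr4a3 had 0 to 1.94 CPM and Nr4a1 had 73.5 to 212 CPM, both below every MH library. Without MH3 the members with a negative value were 23, and those lower at an unadjusted p under 0.05 were 5. They were 1 without MH1, 1 without MH2, 4 without MHE1 and 3 without MHE3. In the RefSeq windows, the cAMP element TGACGTCA was in 5 of 17 members (29.4%), Maff, Dusp1, Btg2, Jund and Ier2, against 1.83% of all windows.

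Cytosolic chaperones showed a like direction in 12 of 18 members, with a median of -0.23. Those lower at an unadjusted p under 0.05 were 4, the inducible Hsp70 genes Hspa1a and Hspa1b, Hsp90aa1, and Hsph1, an Hsp110 exchange factor. Over all genes, 2.31% were lower at that p. Hspa1b had 15, 12.2 and 42.8 CPM in MH and 7.04, 8.25 and 11.1 CPM in MHE, with a log2 fold change of -1.31 ± 0.54. Hspa1a and Hspa1b are near-identical copies whose reads are hard to assign, and the rows of Hspa1b and Hsp90aa1 overlap others on the same strand. MH3 was the highest library for all 4, and none of the list reached an unadjusted p of 0.05 without it, nor without MHE1 or MHE2, and 2 did without MHE3.

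Targets of the glucocorticoid receptor, which stress hormones switch on, were higher in MHE in 10 of 14 members. The median was 0.36, and 3 reached an unadjusted p under 0.05, against 1.5% of all genes. Fkbp5, a co-chaperone of the receptor, had 42, 31.4 and 88 CPM in MH and 95.4, 97.6 and 127 CPM in MHE, with a log2 fold change of 1.07 ± 0.40. Tsc22d3 (GILZ), a mediator of anti-inflammatory action, had 216, 182 and 304 CPM in MH and 344, 433 and 545 CPM in MHE, with 0.95 ± 0.41. Zbtb16, a zinc finger repressor, had 7.08, 8.77 and 25 CPM in MH and 19.2, 21.3 and 48.2 CPM in MHE, with 1.26 ± 0.53. In normoxia, Fkbp5 had 31.1 to 54.1 CPM in MC and 48.5 to 125 CPM in MCE, and MCE over MC gave 0.97 for Tsc22d3 and 1.48 for Zbtb16. The interaction was 0.07 ± 0.56 for Fkbp5, -0.01 ± 0.57 for Tsc22d3 and -0.22 ± 0.76 for Zbtb16. Without MH2 or without MHE3, no member reached an unadjusted p of 0.05, and 1 did without MH1.

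**Figure D3:**
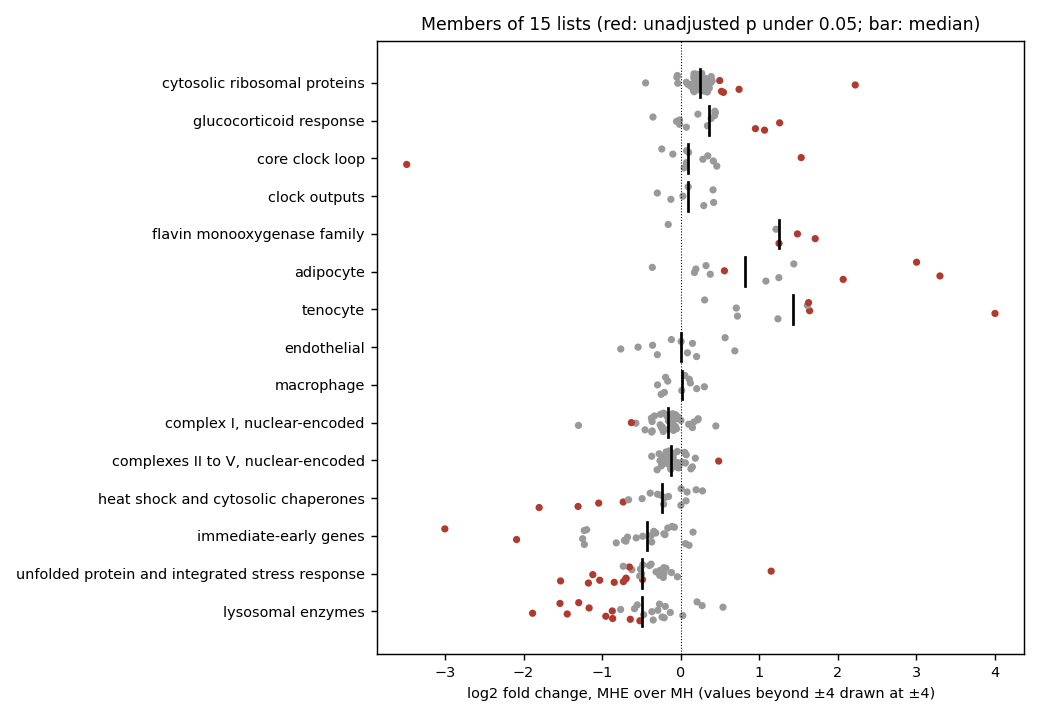
Each point is the log2 fold change of MHE over MH of 1 member of a gene list, red where its unadjusted p was under 0.05, and the black bar is the median of the list (values beyond 4 are drawn at 4). The ribosomal list sits to the right of 0 with Rpl30 far out, and the unfolded protein, lysosomal and immediate-early lists sit to the left.

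Among the circadian clock genes, Cry1 was higher and Npas2 lower in MHE, and the libraries of MH and MHE overlapped at the others. BMAL1 (Arntl) with CLOCK or NPAS2 activates the loop, PER and CRY proteins repress it, and REV-ERB (Nr1d1, Nr1d2) and RORA (Rora) act on Arntl. Of the 12 genes of the core loop, 9 had a positive log2 fold change, with a median of 0.09. An unadjusted p under 0.05 was reached by 1 that was higher, against 1.5% of all genes, and by 1 that was lower, against 2.31%. Cry1 had 7.96, 3.46 and 7.13 CPM in MH and 18.4, 19.2 and 12.4 CPM in MHE, with a log2 fold change of 1.53 ± 0.43 at an unadjusted p of 0.0029 from edgeR. Npas2 had 6.19, 14.5 and 19 CPM in MH and 0.782, 2.06 and 0 CPM in MHE, with a log2 fold change of -3.49 ± 0.92 at an unadjusted p of 0.00192. Neither gene's groups overlapped. Over all genes, 3.95% did not overlap and were higher in MHE, and 4.81% did not overlap and were lower. Npas2 in MHE rested on few reads, since 3 counts correspond to 1.03 to 1.85 CPM in those libraries.

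Arntl was low in MH, at 0 to 5.31 CPM, and in MHE, at 1.24 to 6.25 CPM, where MC had 52.8 to 74.2 CPM. The MCE values of Arntl are not given here, so its low level is not described as particular to the hypoxic groups. The log2 fold change of Arntl in MHE over MH was 0.05 ± 0.67. Clock had 0.46 ± 0.49, Per1 0.07 ± 0.43, Per2 0.42 ± 0.26, Per3 0.28 ± 0.34 and Cry2 0.34 ± 0.23. Nr1d1 had -0.10 ± 0.29, Nr1d2 0.10 ± 0.22 and Rora 0.08 ± 1.12. Nr1d1 and Nr1d2 overlapped between groups with 212 to 387 CPM in all 6 libraries. Of the 7 output factors, 5 were positive with a median of 0.10 and none had an unadjusted p under 0.05. Dbp, a PAR-domain activator driven directly by the loop, had 393, 359 and 297 CPM in MH and 469, 441 and 363 CPM in MHE, with a log2 fold change of 0.29 ± 0.33. Tef had 0.42 ± 0.25, Hlf -0.13 ± 0.97, Nfil3 0.03 ± 0.56, Bhlhe40 -0.30 ± 0.34, Bhlhe41 0.41 ± 0.43 and Ciart 0.10 ± 0.76. In the RefSeq windows, the E-box CACGTG was in 1 of 9 core genes and in 4 of 6 output genes (66.7%), against 6.42% of all windows. The D-box TTATGNAA was in 1 of the 9 and none of the 6, against 3.66% of all windows. The hour of killing was not given, so a shift of phase cannot be told apart from a change of level.

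**Figure D4:**
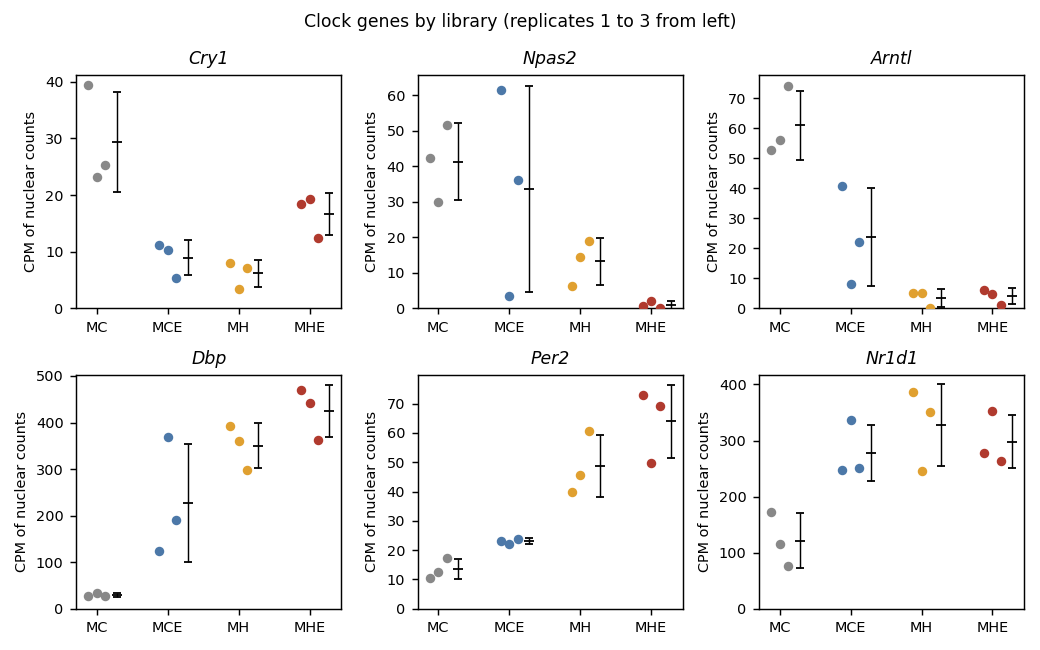
CPM of nuclear counts of 6 clock genes in the 12 gastrocnemius libraries, with the mean and SD of each group. Cry1 is higher and Npas2 lower in the 3 MHE libraries than in the 3 MH libraries, while Arntl, Dbp, Per2 and Nr1d1 overlap between them.

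The lists of energy metabolism are set here against all genes, of which 1.5% were higher and 2.31% lower at an unadjusted p under 0.05. Nuclear-encoded complex I subunits had a negative log2 fold change in 28 of 35 measured members with a median of -0.16, and 1, Ndufb6, reached an unadjusted p under 0.05 at -0.63 ± 0.23 (its row overlaps Topors). Complexes II to V had a negative value in 31 of 40 with a median of -0.13, and the 1 member at that p, Cox6b1, was higher with 0.48 ± 0.21. The median was -0.16 in the tricarboxylic acid cycle (14 members), -0.14 in fatty acid oxidation (22) and 0.03 in glycolysis and lactate transport (17), with no member at an unadjusted p under 0.05. The regulators of mitochondrial biogenesis had a median of -0.12 (14 members), also with none at that p.

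Single genes of fuel handling stood out from their groups. Angptl4, a secreted inhibitor of lipoprotein lipase, had 30.5, 27.5 and 54.7 CPM in MH and 8.99, 21 and 12.4 CPM in MHE, with a log2 fold change of -1.32 ± 0.40 at an unadjusted p of 0.00492. The value for MCE over MC was -1.51, of the same sign. Cd36, a fatty acid transporter, had -0.82 ± 0.38, and Ucp3, an uncoupling protein of muscle, had -0.94 ± 0.38. Both were highest in MH3, with 949.9 and 109 CPM, and the Cd36 row is overlapped by 2 others on the same strand. Plin4, a lipid droplet protein, had 23.9, 6.69 and 27.3 CPM in MH and 30.1, 34.4 and 45.1 CPM in MHE, with 1.05 ± 0.46. Tbc1d4, which holds back GLUT4 vesicles until insulin or contraction acts, had 17.7, 14.5 and 11.9 CPM in MH and 7.04, 7.21 and 8.03 CPM in MHE, with -0.98 ± 0.44. Slc2a4, the gene of GLUT4 itself, had -0.47 ± 0.46.

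Fibre-type genes varied between libraries within each group. Myh7, the slow myosin heavy chain, had 298, 20.1 and 514 CPM in MH and 127, 3.44 and 685 CPM in MHE, so a library of low slow-fibre transcripts was present in each group. Car3, the carbonic anhydrase of slow fibres and adipocytes, had 1017, 532 and 1271 CPM in MH and 1771, 1706 and 2263 CPM in MHE, with a log2 fold change of 1.06 ± 0.35 at an unadjusted p of 0.00934. Of the 12 measured fast-fibre genes, 6 were positive and none reached an unadjusted p of 0.05. Jph2, which ties the surface membrane to the calcium store, had 0.74 ± 0.32. The sarcomere list (19 measured) and the proteasome list (31) had no member at that p, with medians of -0.14 and -0.08. Cdkn1a, an inhibitor of cell division that FoxO factors induce, had -1.25 ± 0.47.

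Secreted factors and hypoxia targets were mixed. Of 12 measured myokines, 9 had a negative value and 3 were lower at an unadjusted p under 0.05, Angptl4, Ccl2 and Cxcl1. Over all genes, 2.31% were lower at that p. Ccl2, which draws monocytes, had 118, 93.7 and 51.1 CPM in MH and 36.7, 25.1 and 31.5 CPM in MHE, with a log2 fold change of -1.49 ± 0.45. Cxcl1, a neutrophil chemokine, had 38.9, 57.9 and 14.3 CPM in MH and 11.7, 4.12 and 4.94 CPM in MHE, with -2.46 ± 0.84. Of 18 measured targets of hypoxia-inducible factors, 10 were positive with a median of 0.02. Vegfa had 80.1, 95.3 and 102 CPM in MH and 51.6, 48.4 and 79.7 CPM in MHE, with -0.61 ± 0.29 at an unadjusted p of 0.0529. P4ha1, a collagen prolyl hydroxylase, had 87.6, 55.8 and 210.4 CPM in MH and 41.4, 41.9 and 69.2 CPM in MHE, with -1.16 ± 0.42, or -0.46 without MH3. Igf2, a growth factor of myogenesis, had 934, 586 and 555 CPM in MH and 386, 369 and 366 CPM in MHE, with -0.86 ± 0.26 at an unadjusted p of 0.00503. Its row overlaps another on the same strand.

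Markers of other cells differed between libraries and in part between groups. The 14 adipocyte markers summed to 1154, 1029 and 1094 CPM in MH and to 1469.7, 1641 and 1701 CPM in MHE. In normoxia they summed to 756, 1445 and 1651 CPM in MC and to 829, 689 and 898 CPM in MCE, so MC alone spread widely. Fabp4 was the largest part of the sum in MH and MHE. Of the 12 measured adipocyte markers, 11 had a positive log2 fold change with a median of 0.82. An unadjusted p under 0.05 was reached by 4, Fabp4, Plin1, Slc7a10 and Lep, all higher, against 1.5% of all genes. Without 1 library of MH or MHE the median ran from 0.54 (without MH3) to 1.20 (without MH1), and those at that p were 1 without MH2 or MHE2, 2 without MH1, MH3 or MHE3 and 3 without MHE1. Fabp4 had 637, 637 and 602 CPM in MH and 921, 832 and 973 CPM in MHE, with 0.56 ± 0.23. Plin4 and Car3, which adipocytes also express, moved with this list, and its part in their difference was not tested. The 8 tendon cell markers summed to 527, 141 and 295 CPM in MH and to 413, 1077 and 699 CPM in MHE, and all 8 were positive with a median of 1.42. The median was 2.13 without MH1, 0.90 without MH2 and 0.79 without MHE2. Fmod, fibromodulin, had 192, 38.8 and 119 CPM in MH and 127, 571 and 324 CPM in MHE, with 1.64 ± 0.63. Mkx, a transcription factor of tendon, had no count in the 3 MH libraries and 3.13 to 9.27 CPM in MHE, which is at least 16.8-fold higher against 3 counts over the MH group. The summed level in MHE1 was below that in MH1. Bgn and Fmo2 moved with this list. With the log2 sum of these markers as a covariate, a setting added after seeing the data, the values were 1.02 for Bgn and 1.58 for Fmo2. The part of tendon cells in the 2 differences was not tested.

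Smooth muscle and pericyte markers had a negative value in 10 of 12, with Cnn1 at -1.26 ± 0.48 and Myh11 at -0.74 ± 0.31. Endothelial and macrophage markers had medians of 0.01 and 0.01 over 11 genes each, with none at an unadjusted p under 0.05, and the median of the fibroblast list was -0.25 over 11. Of the lymphocyte lists, 2 T and NK cell genes and no B cell gene were high enough to test, and Cd3g, Cd8b and Ms4a1 were at 0 in all 6 libraries. Hepatocyte transcripts, which are foreign to muscle, were present and differed widely between libraries of each group. Alb, albumin, had 8091, 70.1 and 46.4 CPM in MH and 2111, 1923 and 633 CPM in MHE, with 6421 CPM in MC2 and 4018 CPM in MCE2. The 14 hepatocyte markers summed to 77.3 to 10925 CPM in MH and to 877 to 3165 CPM in MHE. Rpl30 was called with these rows left out as well. That step changes little but the library totals, so it cannot test the part of hepatocyte transcripts in the level of Rpl30.

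**Figure D5:**
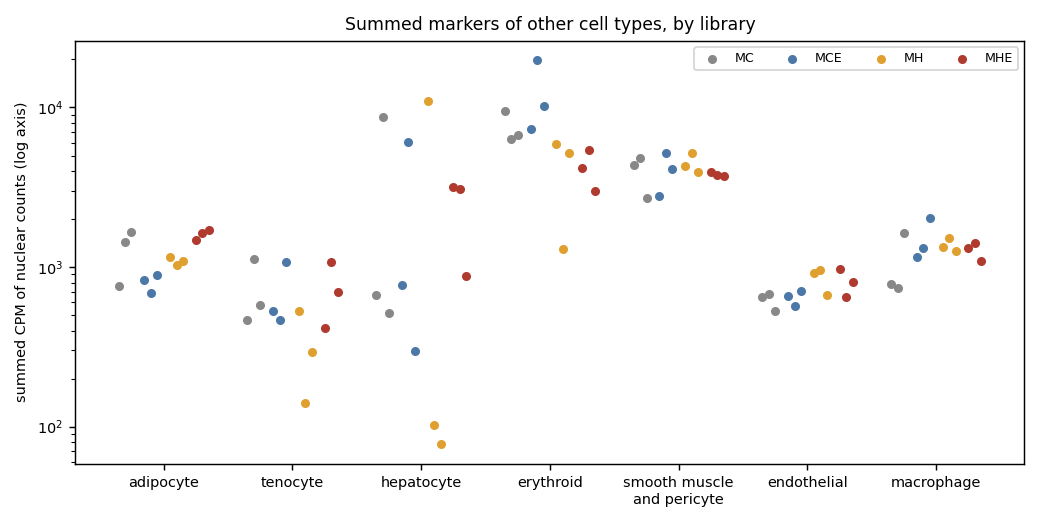
Summed CPM of nuclear counts of the markers of 7 other cell types in the 12 gastrocnemius libraries, on a log axis. The adipocyte sum is higher in the 3 MHE than in the 3 MH libraries, whereas hepatocyte and tendon cell sums spread widely within groups.

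Whether running had another effect in hypoxia than in normoxia was tested by the interaction, the difference of MHE over MH minus that of MCE over MC. No gene passed an adjusted p of 0.05 in edgeR (0%), and 476 of the 12237 had an unadjusted p under 0.05. DESeq2 called 13. Rpl30 had the smallest adjusted p of the named genes, 0.123, with an interaction of 2.43 ± 0.36. Next to it, with adjusted p from 0.299 to 0.304 in edgeR, were Cry1 at 3.25 ± 0.59, Fmo1 at 1.53 ± 0.30, Dbp at -2.67 ± 0.49 and Ctsl at -1.28 ± 0.26. Cxcl1 also had 0.299, but it had no count in MC, so its fitted value is not given. Cry1 had 23.2 to 39.5 CPM in MC and 5.46 to 11.2 CPM in MCE, an order opposite to that of MH and MHE. Dbp had 27.8 to 34.9 CPM in MC and 123 to 368 CPM in MCE, while MH already lay at 297 to 393 CPM. Running speed, read in the order in which the paper lists it, was 20 m/min in hypoxia and 25 m/min in normoxia. On that reading, oxygen and speed cannot be told apart in this term.

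Levels between genes were compared per length, as TPM (transcripts per 1000000, rescaled to nuclear genes). The 5 rows of highest mean TPM over the 6 libraries were AABR07046778.1, Atp2a1, Rn60_1_2212.4, Acta1 and Myl1. Acta1, skeletal alpha-actin, had 25055 ± 5825 TPM (SD, n = 3) in MH and 27050.5 ± 3172 TPM in MHE. Myl1, a fast myosin light chain, had 12487 ± 8020 TPM in MH and 14113 ± 4858 TPM in MHE. Atp2a1, the calcium pump of fast fibres, had 34886, 20620 and 104318 TPM in MH and 9796, 15356 and 44617 TPM in MHE, and MH3 was again highest. The other 2 are unannotated rows of 267 and 695 bases. Rn60_1_2212.4 took 3.38% and 5.96% of the nuclear counts of MHE2 and MHE3 but 0.0109% of those of MHE1 and 0.0121% to 0.0416% of those of MH. CPM values of all other genes in MHE2 and MHE3 are lowered by these shares. With both rows left out, Rpl30 was again the 1 gene called.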

How the data were processed

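RNA was extracted from gastrocnemius (12 libraries) and epididymal fat (10 libraries, used only in the closing values), and libraries were made with a stranded mRNA kit. Hypoxia was 13.6% oxygen, a value that the paper gives for the hypoxic quiet group. The authors trimmed reads with Trimmomatic, checked quality with FastQC and used HISAT2 for alignment, against rat sequence and gene models of Ensembl release 99. The counting program and its strand setting are not given in the sources used here. The deposited counts are whole reads per gene, and the deposited TPM values were computed by the authors over all genes. FPKM values deposited by the authors in the same table were not used in any test. Authors' fold changes were not used.

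Rows of the mitochondrial genome were set aside and library totals taken from the other rows. The deposited counts of the 12 muscle libraries were fitted with edgeR 4.0.16 (R 4.3.3, limma 3.58.1) with 1 mean per group, TMM factors and filterByExpr by group. The test was the quasi-likelihood F test, with Benjamini-Hochberg adjustment over 12237 genes and a threshold of 0.05. The SE was the log2 fold change divided by the square root of F. DESeq2 1.42.0 was an alternative among 27 settings, 23 of them planned. The script was tested on simulated data. TPM was rescaled to a nuclear sum of 1000000 per library.

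Named genes were those called, the 10 of smallest p in each direction with at least 10 CPM and no overlap of libraries, up to 4 of smallest p per list, all clock genes and the 5 of highest TPM. Other genes were named after their values were seen. Some genes that the rule names are not reported here. The members and lists were chosen with earlier results of these data known, and the flavin monooxygenase, lysosomal enzyme and hepatocyte lists were added after seeing the data. Of 860 list members, 824 matched by symbol, 21 by an older symbol, and 15 did not match, Myh1, Myh4 and Ttn among them. Promoter windows came from RefSeq (GRCr8), matched by symbol. Levels are limited by nuclear depth, since 3 counts correspond to 0.692 to 3.57 CPM in the 6 libraries.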

Additional observations from a re-analysis of the deposited data

How the results depend on the processing

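The log2 fold change of Rpl30 ran from 2.01 to 2.49 under the 27 settings. These reuse the same libraries, whose Rpl30 values in MH and MHE lie far apart, so its sign could hardly have changed. Genes called for MHE against MH were 2 with no filter on low counts and 7 with DESeq2. They ranged from 0 to 2 when 1 library was left out, with none without MH1, MH2 or MHE2 and 2 without MHE1. Rpl30 then ranged from 2.01 to 2.34. After seeing the data, MH3 and MC2 were left out together, which gave no call and 2.34 for Rpl30 at an adjusted p of 0.125 in edgeR. The tendon marker sum as a covariate, also added later, gave no call and 2.49 for Rpl30 at 0.0549, with 4 of 8 tendon markers positive, Fmod at -0.00088 and Kera at -0.13. These markers make up the covariate. The cause of the differences was not tested. Interaction calls were 1 without TMM factors, 4 with no filter and 13 with DESeq2, and ranged from 0 to 1 when 1 library was left out, with 1 without MCE1 and 1 without MCE2. Of 18 same-numbered pairs of libraries, 4 had deviations correlated above 0.1, with r from -0.18 to 0.25. Between MH and MHE, r ran from 0.05 to 0.21 in same-numbered pairs and from -0.18 to 0.13 in the others. Whether replicate numbers pair the libraries was not tested. With the replicate block, 1 gene was called, Rpl30 at 2.23 with an adjusted p of 0.0176 in edgeR. The shallow nuclear depth of MH3, 841153 counts, limits genes of low level most.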

Other observations

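The epididymal fat of the same groups gave values for some of the genes named in muscle. There were 2 libraries each of the fat hypoxia quiet group (FH1, FH3) and the fat hypoxia exercise group (FHE2, FHE3). By the methods, the 22 libraries came from 22 rats. In view of a row described in the next paragraph, whether fat and muscle of the same number shared a rat is uncertain. The fat values are therefore not taken as values of separate animals. Rpl30 had 23.1 and 27.8 CPM of nuclear counts in FH and 166 and 78.1 CPM in FHE, and the 6 normoxic fat libraries had 75.6 to 168 CPM. Fmo1 had 136 and 99.2 CPM in FH and 220.5 and 210.0 CPM in FHE. Fmo2 had 31.6 and 62.4 CPM in FH and 82 and 81.3 CPM in FHE. Pdia4 had 150.4 and 174 CPM in FH and 82.4 and 72.1 CPM in FHE. Of the 20 genes named as higher or lower in muscle, the fat libraries of FH and FHE did not overlap and had the same order as in muscle in 12, overlapped in 5, and had the opposite order in 3. The 3 were Bgn, with 459 and 835 CPM in FH and 325 and 416 CPM in FHE, Tspan8, with 32.2 and 37 CPM in FH and 48.9 and 41.1 CPM in FHE, and Atad3a, with 42.4 and 30.1 CPM in FH and 56.4 and 57.1 CPM in FHE. Myf6, a transcript of muscle fibres, had 58.9 CPM in FHE3 and at most 1.93 CPM in the other fat libraries, and it is among the 12 although FHE2 had 0.299 CPM. The same count over all genes in fat was not taken, so the 12 and the 3 have no background to be set against. No test was run on these values.

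The unannotated row Rn60_1_2212.4, which lies on the minus strand of chr1:221158098-221158792 (Ensembl release 99), was either very high or low in a library. In muscle it had 33260 to 77545 CPM in MC1, MC3, MCE1, MCE3, MHE2 and MHE3 and 85.4 to 416 CPM in the other 6 libraries. In fat it had 287 to 1169 CPM in FC1, FC3, FCE1, FCE3, FHE2 and FHE3 and 7.90 to 59.2 CPM in FC2, FCE2, FH1 and FH3. Each of the 10 fat libraries was thus on the same side as the muscle library of its group and number, although the methods count a rat per library. AABR07046778.1, on the plus strand of chr5:6373583-6373849, had 4447 to 29728 CPM of nuclear counts in the 12 muscle libraries, but 423 to 777 per 1000000 of all counts, mitochondrial ones included.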
